A study of Mus musculus with 4 samples.

Results

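Trem2, Tyrobp, Spp1, Gpnmb, Cd9 and Lgals3 are 6 of the 31053 genes counted in single bone marrow (BM) macrophages that had or had not taken up apoptotic prostate cancer cells. They were picked by name, as genes that are known to mark lipid-associated macrophages, at a time when earlier results of these data were known. All 6 were detected in every library and all 6 passed the filter on low counts, so none was lost to depth.

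TREM2 is a surface receptor that binds lipids, apolipoproteins and dying cells, and it signals through the adaptor TYROBP (DAP12), whose phosphorylated tail recruits the kinase SYK. Macrophages loaded with lipid, in atherosclerotic plaques, obese fat tissue, tumors or the brain, are known for a shared set of genes that includes the secreted matrix protein osteopontin (Spp1), the transmembrane glycoprotein GPNMB, the tetraspanin CD9 and the sugar-binding galectin-3 (Lgals3). In microglia the full set is known to depend on TREM2, and clearance of apoptotic cells is one way in which macrophages take up lipid.

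Macrophages were grown with M-CSF from the BM of male C57BL/6J mice, and all groups share this strain and culture. The mice were 4 to 6 weeks old by the general methods and 4 weeks old by the caption of the single-cell experiments. RM1 cells, a mouse prostate cancer line driven by Ras and Myc, were made apoptotic, dyed with CFSE and co-cultured with the macrophages for 16 to 18 h. Efferocytic macrophages were sorted as F4/80+CFSE+ cells and non-efferocytic macrophages as F4/80+ cells without the dye, with 1 library of each in Experiment 1 and in Experiment 2. The study's scheme draws the non-efferocytic cells from wells without RM1 cells, and its discussion calls them macrophages alone. In that case uptake and exposure cannot be told apart. The dye marks uptake of RM1 material but not its amount, and the cells come from culture rather than from a tumor. The methods ask for at least 3 mice per group in macrophage experiments in general but do not give the number behind each library. The p-values thus measure the spread between these 4 libraries. With so few libraries, the edgeR test used below estimates that spread largely by pooling over genes.

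The libraries held 6695 to 13411 cells after filtering and 101216659 to 155224183 unique molecular identifiers (UMIs) in cells. The median cell held 17171 and 17476 UMIs in the efferocytic libraries against 11146 and 9600.0 in the non-efferocytic ones. Non-efferocytic library 2 stood apart, with 36048 barcodes of 500 to 999 UMIs against 1048 to 2046 in the others, and it shared 118 cell barcodes with efferocytic library 2 where other pairs shared 14 to 23. All 12 macrophage markers were above 1 CPM (UMIs of a gene when a library is scaled to 1000000) in all 4 libraries, and their summed level was 46162 and 40765 CPM in the non-efferocytic and 37966 and 29747 CPM in the efferocytic libraries of Experiments 1 and 2. Of these markers 5 were called lower and 1 higher, so macrophage markers also moved with the groups. Of all 13869 genes tested, 19.9% were called higher and 19% lower in efferocytic macrophages.

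Spp1 and Gpnmb differed most. Spp1 encodes osteopontin, a secreted ligand of integrins and CD44. Its level was 918 CPM in the non-efferocytic and 2719 CPM in the efferocytic library of Experiment 1, and 767 and 2166 CPM in those of Experiment 2. Both efferocytic libraries were above both non-efferocytic ones, by more than the gap between libraries of a group. The log2 fold change was 1.64 ± 0.13 (SE, taken for all 6 genes as its absolute size over the square root of edgeR's F statistic). The adjusted p was 0.00015 by edgeR's quasi-likelihood test with the experiment as a block. Spp1 ranked 51 of the 13869 genes by size of increase.

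Gpnmb encodes a glycoprotein of the cell surface and of late endosomes and lysosomes. It was at 3283 and 6699.6 CPM in the non-efferocytic and efferocytic libraries of Experiment 1 and at 3210.2 and 6984 CPM in those of Experiment 2. The groups were far apart, and each experiment gave nearly the same pair of levels. Its log2 fold change was 1.18 ± 0.16 (SE), with an adjusted p of 0.0013 in edgeR, and its rank was 159.

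Cd9 encodes a tetraspanin that organizes integrins and other proteins in the plasma membrane and is abundant on extracellular vesicles. Its levels were 489.6 and 887 CPM (non-efferocytic, efferocytic) in Experiment 1 and 537 and 819.8 CPM in Experiment 2. The groups did not overlap, and the gap between them was larger in Experiment 1. The log2 fold change was 0.84 ± 0.12 (SE), with an adjusted p of 0.0018 in edgeR.

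Lgals3 encodes galectin-3, a lectin that binds sugars on the cell surface and on damaged lysosomes. It was at 9416 and 14520.3 CPM in Experiment 1 and at 11520.1 and 17414 CPM in Experiment 2. The groups did not overlap, but both libraries of Experiment 2 were above their counterparts of Experiment 1, so that the SD within a group was 1488 CPM (non-efferocytic) and 2046 CPM (efferocytic), each with n = 2. Its log2 fold change of 0.72 ± 0.20 (SE) had the weakest support of the 4, with an adjusted p of 0.023 in edgeR.

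Trem2 and Tyrobp, the receptor and its adaptor, did not pass the test. Trem2 was at 1742 and 1892 CPM (non-efferocytic, efferocytic) in Experiment 1 and at 1933 and 1851 CPM in Experiment 2, so the groups overlapped. Its log2 fold change was 0.14 ± 0.14 (SE, adjusted p of 0.47 in edgeR). Tyrobp was at 3971 and 4076 CPM in Experiment 1 and at 4015 and 3374 CPM in Experiment 2. Efferocytic library 2 was the lowest of the 4 and efferocytic library 1 the highest, and the log2 fold change was 0.00040 ± 0.16 (SE, adjusted p of 0.998 in edgeR).

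**Figure D1:**
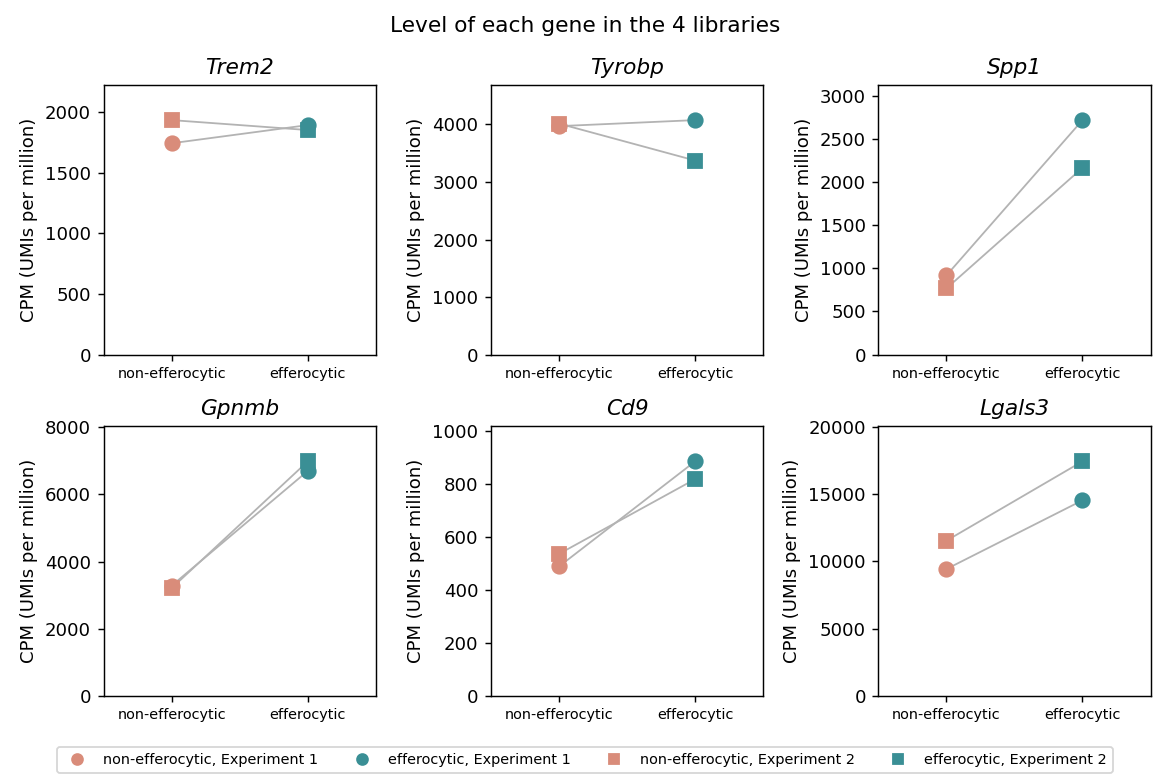
Level of each of the 6 genes in CPM (vertical axes from 0) in the 4 libraries, with gray lines joining the libraries of an experiment. Spp1, Gpnmb, Cd9 and Lgals3 were higher in efferocytic libraries in both experiments, whereas the lines of Trem2 and Tyrobp run in opposite directions.

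In all, 4 of the 6 genes were called higher and 0 lower, where 19.9% of all genes tested were called higher. Counting both directions the background was 38.9%. Among the 1298 genes whose mean level reached 100 CPM, as that of all 6 did, 38.4% were called higher and 48.4% in either direction, so that a well-measured gene was called more often. The log2 CPM ratio had the same sign in both experiments for 4 of the 6 genes and for 80.3% of all genes tested. The median log2 fold change was 0.78 over the 6 genes and -0.018 over all genes tested. Spp1 and Cd9 (wounding) and Lgals3 and Gpnmb (immune regulation) also stand in gene ontology lists that the study drew from these same libraries, so their presence there is not independent evidence of the direction.

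The calls, more than the sizes of the changes, varied with the libraries used and with the removal of free RNA. With 10% free RNA removed from each library, Spp1 was still called (adjusted p of 0.049 in edgeR), while Gpnmb (0.051), Cd9 (0.059) and Lgals3 (0.079) were not. Their log2 fold changes in that fit, 1.20, 0.85 and 0.72, were as large as before, and calls over all genes fell to 192 higher and 125 lower. Their standard errors were 0.13, 0.13 and 0.15 there, against 0.16, 0.12 and 0.20 before, and that of Spp1 was 0.11 against 0.13. The lost calls thus came without smaller changes, and only Cd9 had a larger standard error. With either non-efferocytic library left out and no block, none of the 6 was called, with log2 fold changes of 1.53 to 1.79 for Spp1, 1.17 to 1.20 for Gpnmb, 0.78 to 0.92 for Cd9 and 0.58 to 0.87 for Lgals3. At an adjusted p of 0.05 in edgeR, 2 of 14207 and 0 of 14036 genes were called in those fits, without non-efferocytic libraries 1 and 2. The sums per library are shares of RNA, in which fewer cells with a gene and less of its RNA per cell cannot be told apart, and scaling to UMIs per cell in place of TMM (edgeR's trimmed mean of M-values) added 0.62 to each log2 fold change, placing Trem2 at 0.75 and Tyrobp at 0.62, both then called higher, while the median of all genes moved to 0.60.

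**Figure D2:**
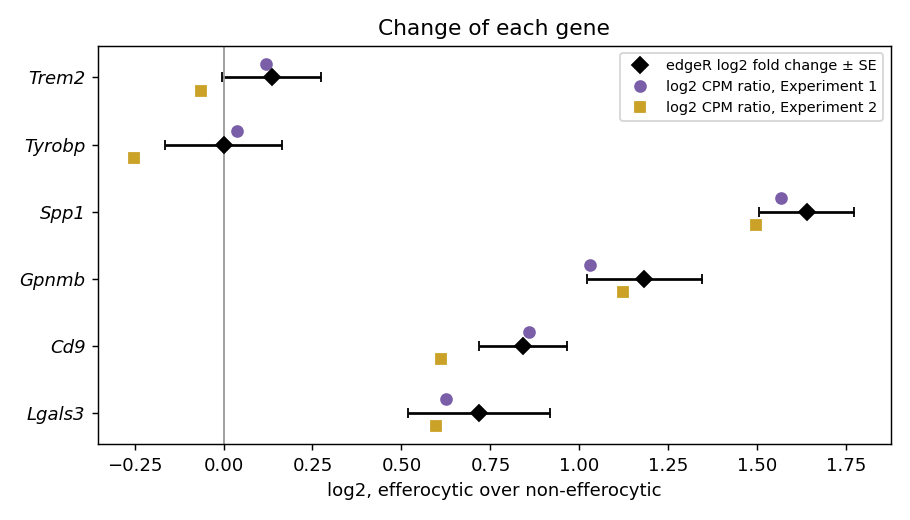
Log2 fold change of each gene by edgeR with a standard error derived from the F statistic (diamonds and bars) and the log2 CPM ratio within each experiment (circles, Experiment 1, and squares, Experiment 2). The CPM ratios lie a little below most diamonds because TMM rescales the libraries, and those of Trem2 and Tyrobp fall on both sides of 0.

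Sequence just before the start site is shown for Spp1 and Gpnmb, the genes with the largest increases, and for Trem2, which was not called. These are the 250 bases of RefSeq (GRCm38.p6), 5′ to 3′ on the plus strand, at chr5:104434861-104435110 for Spp1, chr6:49036268-49036517 for Gpnmb and chr17:48346151-48346400 for Trem2. Capitals mark letters that match a searched motif on either strand.
Spp1: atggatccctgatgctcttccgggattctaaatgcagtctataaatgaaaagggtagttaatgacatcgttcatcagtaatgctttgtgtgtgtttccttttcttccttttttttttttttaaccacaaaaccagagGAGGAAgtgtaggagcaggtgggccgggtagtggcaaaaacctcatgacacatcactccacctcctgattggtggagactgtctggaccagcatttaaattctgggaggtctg
Gpnmb: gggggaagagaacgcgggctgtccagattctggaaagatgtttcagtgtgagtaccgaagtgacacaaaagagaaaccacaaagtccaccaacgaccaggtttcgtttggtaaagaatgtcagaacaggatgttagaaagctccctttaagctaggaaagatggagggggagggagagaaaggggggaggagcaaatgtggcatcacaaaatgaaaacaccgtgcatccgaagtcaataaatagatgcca
Trem2: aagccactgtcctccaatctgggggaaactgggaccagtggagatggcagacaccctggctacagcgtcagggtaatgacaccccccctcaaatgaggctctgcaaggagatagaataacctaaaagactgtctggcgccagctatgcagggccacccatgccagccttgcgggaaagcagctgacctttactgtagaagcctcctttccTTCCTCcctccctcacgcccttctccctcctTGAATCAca

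The 4 motifs searched were TGANTCA, bound by AP-1, GAGGAA, the core bound by the macrophage factor PU.1, TCATGTG, the M-box bound by MITF, and CACGTG, the E-box. They do not overlap each other in these windows. The Spp1 window held 1 PU.1 core, and the Trem2 window held 1 PU.1 core and 1 AP-1 match. The windows of Gpnmb, Cd9 and Lgals3 held no match, and Tyrobp has no window in the table. Of 27025 windows of the same length, 23.1% held a PU.1 core, 6.87% an AP-1 match, 3.22% an M-box and 6.05% an E-box. These matches describe letters only.

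Detection in single cells separated the genes into 2 kinds. Cells were thinned to 5000 UMIs each so that depth did not set the share, which left out 1099 and 544 shallower cells (non-efferocytic, efferocytic) in Experiment 1 and 3404 and 505 in Experiment 2. The shares of thinned cells with a UMI of Trem2, Tyrobp, Gpnmb or Lgals3 were 98.97% to 99.97% in the 4 libraries, so their shares carry almost no information. Spp1 had a UMI in 77.3% (95% exact binomial interval 76.3 to 78.2) of non-efferocytic and 97.3% (96.9 to 97.7) of efferocytic cells in Experiment 1. In Experiment 2 the Spp1 shares were 79.5% (78.6 to 80.2) and 97.3% (96.9 to 97.6). Cells led by neutrophil genes are given for comparison. In Experiment 1 Spp1 had a UMI in 38.0% (26.8 to 50.3) of their non-efferocytic and 11 of 22 (28.2% to 71.8%) of their efferocytic cells. The Experiment 2 shares were 53.4% (45.0 to 61.6) and 67.4% (52.0 to 80.5). All were below the shares in the other cells. The mean did not follow the share in Experiment 2, where it was 141% and 145% of that in the other cells (non-efferocytic, efferocytic). In efferocytic library 2 the neutrophil-led cluster held 3523 CPM of Spp1, and barcodes of 10 to 100 UMIs held 1583 CPM. In non-efferocytic library 2 these levels were 1113 and 1276 CPM. The source of this Spp1 RNA was not tested, so neutrophil-led cells are no measure of background for Spp1. The intervals cover counting error only, and with 1 library a group in each experiment there is no test.

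Cd9 had a UMI in 68.6% (67.5 to 69.7) of non-efferocytic and 92.6% (91.9 to 93.2) of efferocytic cells in Experiment 1, and in 74.9% (74.1 to 75.8) and 93.0% (92.4 to 93.6) in Experiment 2. Before thinning, all 6 genes were found together in 68.6% and 95.3% of cells in Experiment 1 and in 67.3% and 95.3% in Experiment 2. After thinning these shares were 54.3% and 89.9% in Experiment 1 and 60.2% and 89.99% in Experiment 2. Spp1 and Cd9 set the joint share, since they were the genes missing from many cells. Cd9 also had a UMI in many cells led by neutrophil genes, 77.5% (66.0 to 86.5) of 71 non-efferocytic and 90.9% (70.8 to 98.9) of 22 efferocytic cells in Experiment 1. In Experiment 2 it was 77.7% (70.1 to 84.1) of 148 and 87.0% (73.7 to 95.1) of 46. The shares in the other cells were 68.5% and 92.6% in Experiment 1 and 74.9% and 93.1% in Experiment 2. The Cd9 shares of non-efferocytic cells were thus not above those of neutrophil-led cells. Those of efferocytic cells lay within the wide intervals of neutrophil-led cells. Over the 4 libraries the neutrophil-led clusters held 400 to 474 CPM of Cd9, against 390 to 618 CPM in barcodes of 10 to 100 UMIs. For Trem2 these levels were 291 to 427 and 1000 to 1431 CPM. Whether Cd9 in neutrophil-led cells is background or their own RNA was not tested.

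Finding Spp1 and finding Cd9 in a cell were weakly linked. The odds of finding Cd9 were 1.62 times higher in cells with Spp1 than in cells without it in non-efferocytic library 1, 2.23 times in efferocytic library 1, 1.49 in non-efferocytic library 2 and 1.46 in efferocytic library 2. Both genes were found in 54.9% of non-efferocytic cells of Experiment 1, where the product of their separate shares is 53.0%, and in 60.8% of those of Experiment 2, where the product is 59.5%.

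Of the 4 genes found in nearly every cell, Gpnmb and Lgals3 had higher medians per cell in efferocytic libraries. The median thinned cell held 14 Gpnmb UMIs in non-efferocytic and 32 in efferocytic library 1, and 13 and 33 in the libraries of Experiment 2. The 10th percentile of efferocytic cells was 17 Gpnmb UMIs in both experiments, above the median of non-efferocytic cells. Lgals3 medians were 33 and 63 UMIs in Experiment 1 and 43 and 77 in Experiment 2. Trem2 medians were 8 and 8 in Experiment 1 and 9 and 8 in Experiment 2, and Tyrobp medians were 19 and 19, then 19 and 16.

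Spp1 was unevenly spread over cells. Its median was 2 UMIs in both non-efferocytic libraries and 9 and 8 in efferocytic libraries 1 and 2. The 10% of cells with the most Spp1 held 47.0% and 34.6% of all Spp1 UMIs in the non-efferocytic and efferocytic libraries of Experiment 1, and 42.4% and 29.2% in those of Experiment 2. The share was thus lower in efferocytic cells in both experiments. For Cd9 it was 37.8% and 26.6% in Experiment 1 and 35.6% and 26.7% in Experiment 2, and for Trem2 and Tyrobp it was 17.7% to 21.2% over the 4 libraries. Such a share also depends on the mean count of a gene, which differs between genes and between groups. The variance over the mean of Spp1, which tends to rise with the mean, was 14.7 and 15.3 in Experiment 1 and 9.84 and 8.29 in Experiment 2. Single non-efferocytic cells reached 233 Spp1 UMIs of 5000.

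**Figure D3:**
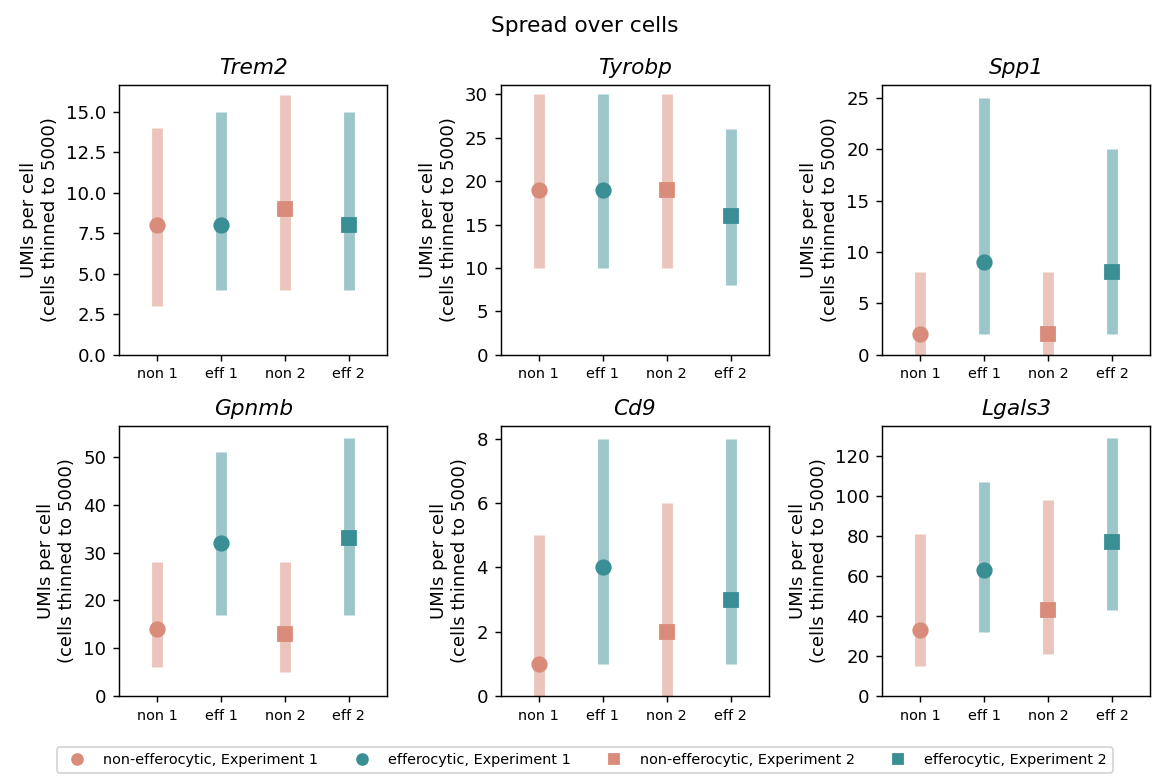
UMIs of each gene per cell after thinning every cell to 5000 UMIs, by library (points, median over cells; bars, from the 10th to the 90th percentile; vertical axes from 0). The bars of Gpnmb start at 17 in both efferocytic libraries, above the non-efferocytic medians of 14 and 13, whereas those of Trem2 and Tyrobp overlap over most of their length.

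Within a library the ties between the 6 genes from cell to cell ranged from none to moderate. Cd9 and Lgals3 had the highest single value, with a Pearson's r of 0.52 and 0.43 in non-efferocytic libraries 1 and 2 and 0.35 and 0.19 in efferocytic libraries 1 and 2. Computed on log(1 + UMIs), as were those values, over the thinned cells, r was 0.39 to 0.42 between Trem2 and Tyrobp, 0.36 to 0.45 between Trem2 and Lgals3 and 0.33 to 0.49 between Gpnmb and Lgals3 in the 4 libraries. Spp1 and Gpnmb, the genes with the largest increases, had an r of 0.23 to 0.24. Tyrobp and Gpnmb had an r between -0.052 and 0.042. These cells share a library, a depth and a total of 5000 UMIs, so the values are a description.

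For each gene, the genes most like it were ranked by the lowest r of the 4 libraries among 6500 genes found in at least 5% of cells. For Gpnmb these were Ctsd and Ctsb, lysosomal cathepsins, and Psap, a precursor of lysosomal lipid-handling proteins, with lowest r of 0.60, 0.47 and 0.38. For Spp1 they were the fatty acid transporter Cd36 (0.23), Gpnmb (0.23) and the lipoprotein lipase Lpl (0.21), a weak likeness. For Lgals3 they were the actin-capping gene Capg (0.53), the ferritin light chain Ftl1 (0.52) and the NADPH oxidase subunit Cyba (0.44).

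For Trem2 the most similar genes were Tyrobp (0.39), the protease inhibitor Cst3 (0.37) and Lgals3 (0.36). Those of Tyrobp were lysozyme, Lyz2 (0.45), the Fc receptor chain Fcer1g (0.43), which is an adaptor like TYROBP, and Cst3 (0.41). Those of Cd9 were the macrophage elastase Mmp12 (0.33), annexin A1, Anxa1 (0.28), and the esterase Esd (0.25).

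Clusters of cells, made in each experiment without the 6 genes, held mostly one group or the other. In Experiment 1, 81.9% of non-efferocytic cells were in clusters 0 and 3, led by Ighm, Ier3 and Hpgd and by MHC class II genes, and 88.5% of efferocytic cells were in clusters 1 and 2, led by Cdkn1c, Mmp12 and Arg1 and by Ccl5, Cnrip1 and Lrrc14b. In Experiment 2, 74.1% of non-efferocytic cells were in clusters 0, 3 and 4 and 86.0% of efferocytic cells in clusters 1 and 2. In Experiment 1, Spp1 was at 578 CPM in non-efferocytic cells of cluster 0 and at 3191 CPM in efferocytic cells of cluster 1. Lgals3 was at 5931 CPM in non-efferocytic cells of cluster 0 and 17478 CPM in efferocytic cells of cluster 1, and Cd9 at 245 and 1134 CPM in the same cells. Trem2 was at 1576 and 1929.9 CPM there, a narrower range.

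Non-efferocytic cells of cluster 1 in Experiment 1, 455 cells that sat with mostly efferocytic ones, held 20276 CPM of Lgals3, 2373 CPM of Spp1 and 1127 CPM of Cd9. In cluster 2 of Experiment 2, which was also led by Cdkn1c and was also mostly efferocytic, the 575 non-efferocytic cells held 23149 CPM of Lgals3 but only 943 CPM of Spp1 and 571 CPM of Cd9, against 2334 and 924 CPM of Spp1 and Cd9 in its efferocytic cells. Non-efferocytic cells of the clusters led by Cdkn1c were thus near the efferocytic level of Lgals3 in both experiments, and of Cd9 in Experiment 1 but not in Experiment 2. The ratio of efferocytic to non-efferocytic cells was also taken inside each of the 11 clusters with at least 50 cells of both libraries, leaving out clusters of few UMIs or led by neutrophil genes. Gpnmb was higher in efferocytic cells in 11 of 11 clusters, with a median log2 CPM ratio of 0.66. Spp1 was higher in 10 of 11, with a median of 1.04, and the exception was cluster 1 of Experiment 2 (log2 ratio of -0.71), which held 106 non-efferocytic cells at 3423 CPM.

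The 4 genes called higher were mostly closer between the groups inside clusters than over all cells. The ratio inside a cluster was below that over all cells of its experiment in 10 of 11 clusters for Spp1 and in 10 of 11 for Gpnmb. For Spp1 in Experiment 1 it was 0.10 to 1.08 against 1.57 over all cells. In Experiment 2, where it was 1.497 over all cells, the Spp1 ratio was little smaller in clusters 2, 3 and 7 (1.31, 1.33 and 1.32), larger in cluster 4 (1.62) and smaller in clusters 0 (1.04) and 1. The Gpnmb median of 0.66 stands against 1.03 and 1.12 in Experiments 1 and 2. The ratio inside clusters was also the lower one in 11 of 11 for Lgals3 and in 8 of 11 for Cd9. Cd9 was higher in 10 of 11 clusters, with a median log2 ratio of 0.18. In Experiment 1 its ratios inside clusters were 0.0084 to 0.18 against 0.86 over all cells. In Experiment 2 they were 0.69, 0.63 and 0.66 in clusters 2, 4 and 7, above the 0.61 over all cells, and -0.24 to 0.21 in the others. Lgals3 was higher in 9 of 11, with a median of 0.092 against 0.62 and 0.60. Trem2 was higher in 6 and Tyrobp in 5 of the 11, with medians of 0.0036 and -0.0041. Because the clusters were made from these same cells, the values are a description with no test.

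**Figure D4:**
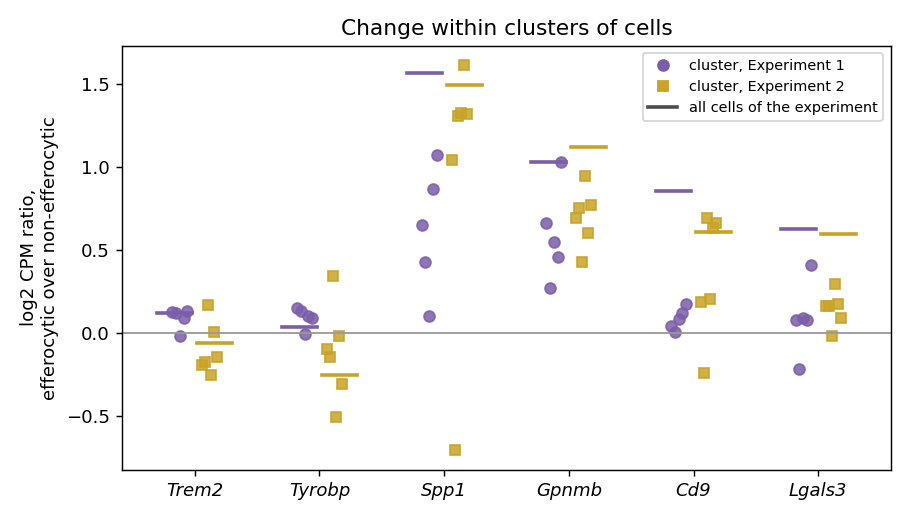
Log2 CPM ratio of efferocytic over non-efferocytic cells inside each of 11 clusters (circles, Experiment 1, and squares, Experiment 2) and over all cells of each experiment (short lines). Points lie below the line of their experiment in 11 of 11 clusters for Lgals3, 10 of 11 for Spp1 and for Gpnmb and 8 of 11 for Cd9, while all Gpnmb points lie above 0 and 1 Spp1 point of Experiment 2 lies at -0.71.

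Genes that work with these 6 were described by lists written by role, beside the background of 19.9% called higher and 19% called lower. Because scaling to UMIs per cell adds 0.62 to every log2 fold change, each decrease smaller than that lies above 0 on that scale. In TREM2-TYROBP signalling and shedding, 1 of 15 genes was called higher and 3 lower, with a median log2 fold change of -0.040. Plcg2, the phospholipase downstream of SYK, was called higher (0.35, adjusted p of 0.028 in edgeR), although its level was 33.6 and 33.7 CPM (non-efferocytic, efferocytic) in Experiment 1 against 31.8 and 44.1 CPM in Experiment 2. Ms4a7, a membrane protein of the locus tied to soluble TREM2 (-0.38, 0.043), and Adam17, a protease that sheds TREM2 (-0.28, 0.0497), fell. Syk itself had a log2 fold change of -0.14 and did not pass the test. With UMIs per cell 10 of the 15 were called higher and 1 lower, and with library totals 0 and 5. Without the block 0 of the 15 were called in either direction.

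Among other receptors listed here as coupling to TYROBP, more were called lower than higher. The adaptor that each of them uses was not tested in these data. Of 12 tested, 1 was called higher and 7 lower, with a median of -0.64, and the median stayed below 0 under each scaling tried (-0.023 with UMIs per cell, with 5 called lower). Clec5a, a receptor of myeloid activation, rose by 0.59 (log2, adjusted p of 0.004 in edgeR), and Cd300lb (-0.32, 0.022) and Cd300ld (-0.25, 0.046), receptors of the CD300 family, fell. The near-identical paralogs Sirpb1a, Sirpb1b and Sirpb1c and the pair Pilrb1 and Pilrb2 can share reads, so their values are uncertain. Without neutrophil-led and few-UMI clusters 10 of the 12 could be tested, of which 1 was called higher and 5 lower, with a median of -0.48. Trem1 and Trem3 are known from neutrophils and monocytes, whose markers also fell (10 of 10 and 7 of 7 called lower), and the part of those cells in the result was not tested further. Of the 7 called lower, 5 (Pilrb1, Pilrb2, Trem1, Trem3 and Siglech) had a mean under 10 CPM, and DESeq2 called 4.

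The receptors of osteopontin split. Of 8 tested, 4 were called higher and 2 lower, with a median of 0.29. The integrin chains Itgav (0.91, adjusted p of 0.00015 in edgeR), Itga5 (0.56, 0.0012) and Itgb1 (0.34, 0.022) and the hyaluronan receptor Cd44 (0.38, 0.020) rose, and Itga4 (-0.98, 0.00014) and Itga9 (-0.84, 0.0072) fell. Itgb3 (0.23, adjusted p of 0.31 in edgeR) and Itgb5 (-0.22, 0.064), which are among the chains that pair with αv, did not pass. Itgb3 and Itga9 were at 1.47 and 1.26 CPM on average. With UMIs per cell 5 of the 8 were called higher and 0 lower, and without the block 2 and 1.

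Among tetraspanins and partners of CD9, 7 of 13 were called higher and 1 lower, with a median of 0.31. Cd53 (0.70, adjusted p of 0.0015 in edgeR), the lysosomal tetraspanin Cd63 (0.55, 0.021) and the CD9 partner Igsf8 (0.55, 0.0013) rose most. Cd81, the closest relative of Cd9 in function, had a log2 fold change of -0.023 and did not pass. The counts were 4 higher and 1 lower with library totals and 11 and 0 with UMIs per cell.

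Of the other galectins and the galectin-3 ligand Lgals3bp, 7 of 8 could be tested, and 3 were called higher and 0 lower. Lgals1 (0.79, adjusted p of 0.0040 in edgeR), Lgals9 (0.63, 0.0014) and Lgals3bp (0.58, 0.0026) rose. Lgals8 (0.18), Lgals4 (0.075), Lgalsl (-0.050) and Lgals2 (-0.48) did not pass, and Lgals12 did not pass the filter on low counts. With library totals 3 were called higher, with UMIs per cell 4 and without the block 1, with 0 lower in each.

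The MiT-TFE factors, which switch on lysosomal genes and are known to act on Gpnmb, were not higher. Mitf (-0.44, adjusted p of 0.0041 in edgeR), Tfeb (-0.29, 0.046) and Tfe3 (-0.28, 0.026) fell, while Tfec (0.031) and the GPNMB-binding syndecan Sdc4 (-0.16) did not pass. With UMIs per cell none of the 5 was called lower and 1 was called higher, so the direction of this group depends on the scale. Without the block 1 of the 5 was called lower and 0 higher.

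The lipid-associated set outside the 6 genes moved mostly up. Of 27 genes tested, 16 were called higher and 5 lower, with a median of 0.55. The highest were Cd36 (1.70, adjusted p of 9.4e-05 in edgeR), the fatty acid-binding protein Fabp4 (1.59, 0.00099) and the lipid droplet coat protein Plin2 (1.39, 0.00034). The lowest with at least 10 CPM were apolipoprotein E, Apoe (-0.74, 0.030), a ligand of TREM2, the efferocytosis receptor Axl (-0.62, 0.0043) and the cholesterol exporter Abca1 (-0.39, 0.017). Apoe, Axl and Abca1 went the other way from Spp1 and Gpnmb, but with UMIs per cell Abca1 lies above 0 and Axl at about 0. The counts were 20 higher and 1 lower with UMIs per cell, 18 and 7 with library totals and 12 and 1 without the block.

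Of 9 genes tested that are known to be lower in disease-associated microglia, 5 were called lower and 1 higher, with a median of -0.56 (0.059 with UMIs per cell, with 4 called lower and 2 higher). The orphan receptor Gpr34 (-2.75, adjusted p of 9.5e-06 in edgeR), the M-CSF receptor Csf1r (-1.15, 0.00026) and the selectin ligand Selplg (-0.33, 0.017) fell.

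**Figure D5:**
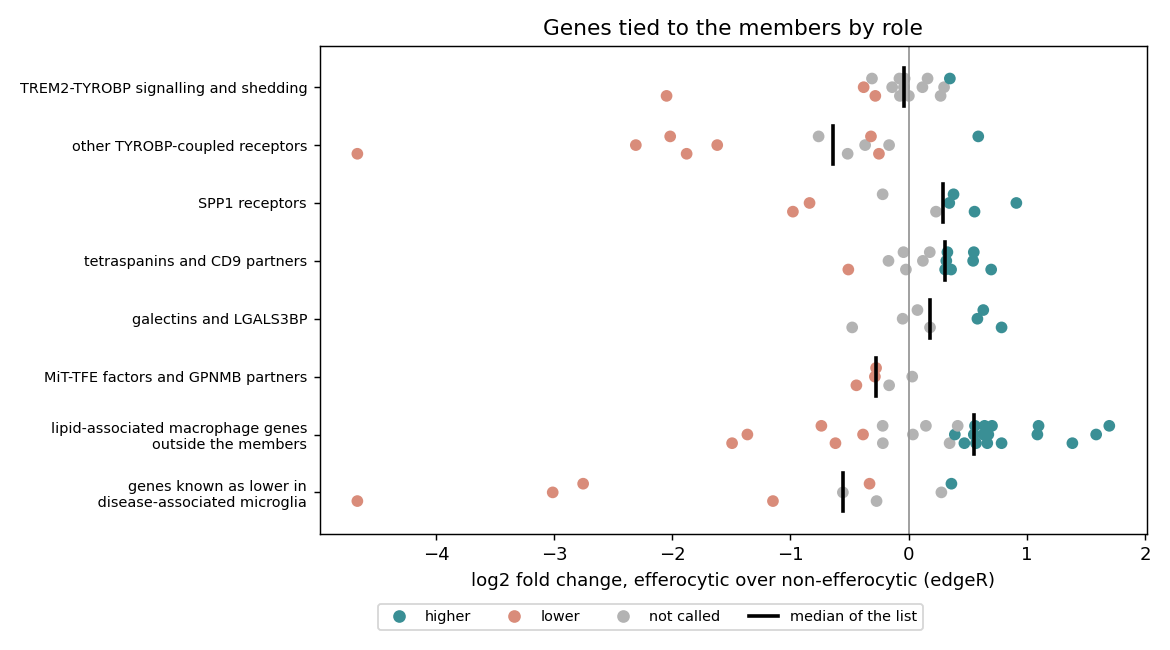
Log2 fold change by edgeR of each gene in 8 lists of genes tied by role to the 6 genes (points, colored by call at an adjusted p of 0.05, and black bars at the median of each list). Points of lipid-associated genes lie mostly to the right of 0 around a median of 0.55, and those of receptors listed as TYROBP-coupled mostly to the left around -0.64.

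RNA of markers of other cells moved with the groups. The 10 neutrophil-lineage markers summed to 3139 and 3439 CPM in the non-efferocytic libraries and 979 and 719 CPM in the efferocytic ones, and all 10 were called lower. The neutrophil-led clusters held 0.92% of non-efferocytic and 0.36% of efferocytic cells in Experiment 1. In Experiment 2, where they held 1.95% and 1.56%, the share of such cells changed less than the marker RNA. The 7 monocyte markers summed to 226.6 and 249.3 CPM against 80.0 and 62.8 CPM and were all called lower, with a median of -1.61. Most of the non-efferocytic sums was Chil3 (155.2 and 169.5 CPM), which was also a leading gene of the neutrophil-led clusters. The part of neutrophil-lineage cells and monocytes in the changes of the 6 genes was not tested beyond the fit without the neutrophil-led clusters. Cells led by neutrophil genes had a Trem2 UMI in 34.8% to 55.4% of cases and a Gpnmb UMI in 52.7% to 60.9%. In other cells both shares were at least 99.4% at the same 5000 UMIs. Whether these lower shares are background was not tested. Of the 12 macrophage markers, 11 in Experiment 1 and 8 in Experiment 2 were found in at least 25% of these neutrophil-led cells. The mean of Cd9 in those cells was nearer to that in other cells of the same library, at 56.5% to 96.6% of it. For Spp1 the experiments went opposite ways. In Experiment 1 its mean was 0.80 UMIs in neutrophil-led and 3.85 in other non-efferocytic cells, and 1.64 and 12.35 in efferocytic cells. In Experiment 2 the same means were 4.93 and 3.49, then 15.02 and 10.39, so that neutrophil-led cells had the higher mean of Spp1 in that experiment. They were 71 and 22 thinned cells in Experiment 1 and 148 and 46 in Experiment 2 (non-efferocytic, efferocytic), and without them and without clusters of few UMIs the log2 fold changes were 1.61 for Spp1, 1.12 for Gpnmb, 0.80 for Cd9 and 0.66 for Lgals3, all still called.

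RNA of the engulfed RM1 cells could enter the counts. A list of 16 genes of epithelial or mesenchymal tumor cells summed to 204 and 187 CPM in the non-efferocytic libraries and 68.6 and 83.2 CPM in the efferocytic ones, where 9 were called lower and 0 higher. Col1a1, Col1a2, Col3a1 and Sparc had the highest levels of the list in every library, and all are also fibroblast markers. They were among the leading genes of the few-UMI cluster of Experiment 1. Leaving out every cell with a UMI of the 16 genes gave log2 fold changes of 1.64, 1.17, 0.84 and 0.70 for Spp1, Gpnmb, Cd9 and Lgals3. Since the list was lower in efferocytic libraries, it does not track engulfed RM1 cells, and this fit cannot test for their RNA. Sequence of the 6 genes from RM1 cells cannot be told apart from that of macrophages, since both are of the same mouse strain. A part of RM1 RNA in the result was not tested.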

How the data were processed

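The authors prepared 10x Genomics 3′ libraries and ran Cell Ranger against mm10, and the deposited values are unfiltered, unnormalized UMI counts. The submitters' notes and the headers of Experiment 1 name version 3.0.0, and those of Experiment 2 name 3.1.0. A barcode was kept as a cell with 200 genes, 1000 UMIs and no more than 10% of UMIs from mitochondrial genes. These counts, added up over cells by library, went into edgeR 4.0.16 on R 4.3.3 (TMM, filterByExpr and the quasi-likelihood test). Experiment entered as a block. Benjamini-Hochberg adjustment ran over all genes, with 0.05 as the threshold. The block pairs the libraries of an experiment as the labels name them, and their deviations from the group means correlated (r of 0.67 over 7097 genes, the same value in both pairs because each group has 2 libraries). On simulated counts modelled on these libraries the test found 98 of 100 genes changed by 1 on the log2 scale and 54 of 100 changed by 0.5. It made 7 false calls among 13786 genes. Every simulated gene had the same dispersion (spread beyond counting error) of 0.0075, and changes were placed only in well-counted genes. Far fewer genes were changed than were called in the data. The simulation thus checks the code and does not measure power or false calls in these data.

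Cells were thinned to 5000 UMIs for shares, spread and correlations, and clustered per experiment without the 6 genes (Leiden, resolution 0.5, 20 principal components). A gene's CPM counts 3′ UMIs, so levels were not compared between genes. Start sites and promoter windows come from GENCODE vM21 and RefSeq. Clec7a, a further lipid-associated gene, was not analysed here.

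The 6 genes, the lists and the tests were chosen with earlier results of these data known. From each list the text names at most the 3 highest and 3 lowest called genes, of those averaging 10 CPM or more with 1 sign in both experiments, and every gene of a list of up to 8. 1 gene that this rule names is not reported here. Other genes were named after their values were seen. Alternatives covered scaling, gene and cell filters, doublets, free RNA, DESeq2 1.42.0, the block and each library left out.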

Additional observations from a re-analysis of the deposited data

Results flagged for a closer look

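Trem2 and Tyrobp had log2 CPM ratios of opposite sign in the 2 experiments, 0.12 and -0.062 for Trem2 and 0.038 and -0.25 for Tyrobp in Experiments 1 and 2. The difference between the experiments was not tested.

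Barcodes with 10 to 100 UMIs, taken here as free RNA and not as cells, held more of 4 of the 6 genes in efferocytic than in non-efferocytic libraries. Their log2 CPM ratios in Experiments 1 and 2 were 0.75 and 0.31 for Spp1, 0.45 and 0.26 for Gpnmb, 0.50 and 0.26 for Cd9 and 0.070 and 0.22 for Lgals3. Each ratio was smaller than that of the cells. In non-efferocytic library 2 the free RNA held 1276 CPM of Spp1, which is 1.66 times the level in its cells, while the ratio was 0.40 to 0.73 in the other libraries.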

How the results depend on the processing

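Of the alternatives with all 4 libraries, 15 for each gene, Spp1 was called in 15 and Gpnmb, Cd9 and Lgals3 in 14. The exception was the removal of 10% free RNA from each library, under which 1 of the 6 was called higher, Spp1 with an adjusted p of 0.049, while Gpnmb (0.051), Cd9 (0.059) and Lgals3 (0.079) missed the threshold with log2 fold changes of 1.20, 0.85 and 0.72. Calls among all genes fell to 192 higher and 125 lower in that fit, and the cause was not tested. Leaving out 1 library (no block, the lone library of a group assumed to vary like the others) gave 0 to 4 genes called higher, and Lgals3 was not called without efferocytic library 2 (adjusted p of 0.070). The fit without the replicate block called the same 4 genes, with 1285 higher and 1073 lower over all genes.

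The log2 fold change of Tyrobp fell below 0 with library totals (-0.11), with genes under 10 CPM left out (-0.095), the Cell Ranger rule for cells (-0.0073), at least 5000 UMIs (-0.022), doublets removed (-0.0052), free RNA removed (-0.010), cells without an RM1 UMI (-0.042), without neutrophil-led and few-UMI clusters (-0.051), without shared barcodes (-0.0018) and without efferocytic replicate 1 (-0.17, against 0.18 without efferocytic replicate 2), with no call. The choices on shared barcodes and on clusters were added after the data were seen, the latter in place of macrophage-like clusters alone. That class was not run because cluster 0 of each experiment had a dendritic marker, Clec10a, and no macrophage marker among its 10 leading genes.

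Over the 8 role lists, 33 calls were higher and 26 lower. These counts were 21 and 11 without the block, 36 and 16 in DESeq2, 30 and 36 with library totals, 54 and 11 with UMIs per cell, 26 and 19 with genes under 10 CPM left out and 3 and 3 with free RNA removed, and 0 to 21 and 0 to 20 with 1 library left out. Over all genes, calls were 1847 higher and 3700 lower with library totals and 6921 and 586 with UMIs per cell. Within a single experiment the share of cells was higher for 4 to 6 genes and 14 to 15 pairs under the alternatives, and no alternative had all 6 genes higher in both experiments. The shares of 4 of the genes are near their ceiling. For Spp1 and Cd9 the efferocytic interval lay above in both experiments, in the main setting and under each alternative tried. The shares themselves differed by 13.9 to 34.8 percentage points for Spp1 and 18.1 to 33.5 for Cd9 over these settings. Without neutrophil-led and few-UMI clusters the efferocytic interval lay above for these 2 genes alone. Experiment 2 rests on a non-efferocytic library with many shallow barcodes.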
